A study of Mus musculus with 4 samples.

Results

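The genes described here are 10 immediate early genes that are also read as a sign of tissue dissociation: Fos, Fosb, Jun, Junb, Jund, Atf3, Egr1, Ier2, Klf2 and Klf4. They were taken by symbol, and all 10 were present among the 32285 genes of both RNA matrices. The study asked how adipocytes of the thymus, where T cells develop, differ from those of another fat depot. One single-nucleus RNA library came from 6 pooled thymi and another from epigonadal white fat, both of 4-month male wild-type, naïve C57/BL6 mice on standard chow. How many mice gave the fat library is not stated in the labels. A multiome library, which reads RNA and open chromatin of each nucleus, was made from thymi of 6-month females, 16 of them pooled, and its RNA was not analysed here. All tissue was digested with DNase I and Collagenase II, and nuclei were prepared from the floating layer. Fat attached to the thymic capsules had been removed first.

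Immediate early genes are transcribed within minutes of a stimulus, from promoters that are held ready, without new protein being made first. Fos, Fosb, Jun, Junb, Jund and Atf3 encode leucine zipper proteins that pair to form the AP-1 and ATF transcription factors. Egr1, Klf2 and Klf4 encode zinc finger transcription factors, and Ier2 encodes a small nuclear protein induced by growth factors. Enzymatic digestion of tissue is known to induce many of these genes in the released cells. Klf2 and Klf4 are in addition kept on in endothelial cells by blood flow, and Egr1 and Klf4 take part in the early steps of adipocyte differentiation in culture.

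Promoter sequences are shown for 4 members that stand for the families described below, Fos and Jun for AP-1, Atf3 for the ATF group and Klf2 for the zinc finger group. They were picked after the motif search and are the members with a TATA box or a MEF2 box. Each is the 250 bases before the RefSeq gene start on GRCm38.p6, written 5′ to 3′ on the gene's own strand. They lie at chr12:85473640-85473889 (Fos, + strand), chr4:95052223-95052472 (Jun, − strand), chr1:191183334-191183583 (Atf3, − strand) and chr8:72318812-72319061 (Klf2, + strand). Capitals mark matches on either strand to a TATA box (TATAAA), a MEF2 box or the CRE core TGACG.
Fos: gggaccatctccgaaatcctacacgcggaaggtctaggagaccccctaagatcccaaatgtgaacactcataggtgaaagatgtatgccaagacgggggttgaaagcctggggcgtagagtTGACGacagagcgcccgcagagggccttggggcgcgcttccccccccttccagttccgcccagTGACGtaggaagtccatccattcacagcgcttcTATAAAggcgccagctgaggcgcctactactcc
Jun: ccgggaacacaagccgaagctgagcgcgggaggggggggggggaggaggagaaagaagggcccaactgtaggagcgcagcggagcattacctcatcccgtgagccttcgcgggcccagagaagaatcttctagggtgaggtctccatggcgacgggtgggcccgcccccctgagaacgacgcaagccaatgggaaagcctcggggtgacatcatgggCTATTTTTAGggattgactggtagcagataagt
Atf3: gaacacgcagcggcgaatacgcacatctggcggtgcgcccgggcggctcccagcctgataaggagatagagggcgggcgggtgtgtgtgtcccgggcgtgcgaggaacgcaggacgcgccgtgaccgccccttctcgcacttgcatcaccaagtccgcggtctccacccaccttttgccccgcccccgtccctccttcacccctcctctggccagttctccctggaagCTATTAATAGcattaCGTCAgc
Klf2: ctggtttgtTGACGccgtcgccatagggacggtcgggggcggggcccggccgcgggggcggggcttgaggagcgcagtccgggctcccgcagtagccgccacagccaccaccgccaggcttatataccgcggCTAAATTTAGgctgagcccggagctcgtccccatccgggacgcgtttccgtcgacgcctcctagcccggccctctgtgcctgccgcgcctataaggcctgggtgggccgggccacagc
RefSeq promoter entries were found for 8 of the 10 members, and Egr1 and Ier2 had none. The TATA box of Fos lies 33 to 28 bases before the start, and of the 8 members only Fos has one, against 13.0% of 27025 mouse promoters of the same length. A MEF2 box lies 33 to 24 bases before the start of Jun, 22 to 13 before that of Atf3 and 118 to 109 before that of Klf2, and 1.75% of all promoters have one. The CRE core is present in Fos, Fosb, Junb, Atf3, Klf2 and Klf4 (17.8% of all promoters). The MEF2 box and the CRE core were added to the search after seeing the data. The GC box GGGCGG, not capitalised, is present in Fos, Fosb, Jun, Atf3, Klf2 and Klf4 (32.9% of all promoters). The CArG box, the full CRE (TGACGTCA), the AP-1 site (TGANTCA) and the EGR site (GCGTGGGCG) are in none of these 8 windows. Of all promoters 1.41%, 1.61%, 6.86% and 0.55% have them, so their absence from 8 windows does not set the members apart. The 4 printed windows were 58.4% G and C for Fos, 61.2% for Jun, 65.2% for Atf3 and 71.2% for Klf2, against a median of 52.0% for all promoters. Of the 8 members Jund alone was below that median, at 47.6%. In the open chromatin described below, the peak of Jund lay 1000 to 1200 bp after this start in thyAD I and thyAD II nuclei. Its values here therefore describe the annotated start only. A match describes the letters only.

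The authors gave a label to 365 of 22600 barcodes of the thymic matrix and to 1564 of 5043 of the fat matrix. In the thymus the labels were Ad IIa for 231 nuclei, Ad Ib for 49, Ad Ia for 35, Ad IIc for 34 and Ad IIb for 16. In fat Ad IIc held 658 nuclei, Ad IIa 590, Ad Ib 152, Ad Ia 106 and Ad IIb 58. Ad I below joins Ad Ia and Ad Ib. The median labelled nucleus had 1479 UMIs (distinct RNA molecules) in the thymus and 966 in fat, and the median unlabelled barcode 308 and 794. Mitochondrial RNA made up a median of 69.3% of UMIs in unlabelled thymic barcodes against 14.7% in labelled ones, and 10.9% against 5.2% in fat. The matrices share 147 barcodes, and 0 of them are labelled in both. Levels are CPM, the counts of a gene per 1000000 nuclear-encoded UMIs summed over a group, and ranges in parentheses are 95% intervals of counting error alone. Each group is 1 library, so there is no replicate, no test and no p-value. A lower sum cannot tell fewer transcribing nuclei from less RNA per nucleus.

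All labels carried adipocyte markers, and they differed in the level of endothelial markers. A nucleus was put in a marker class when it held at least 3 genes of 1 cell-type list and more of it than of any other list, a split chosen after seeing the data. Of the thymic Ad IIa nuclei 227 of 231 fell in the endothelial-marker class, and of the fat Ad IIa nuclei 389 of 590, with 147 in the adipocyte-marker class. The endothelial list summed to 19447 CPM in thymic and 14912 CPM in fat Ad IIa, against 2374 and 2308 CPM in Ad I. The adipocyte list summed to 13494 CPM in thymic and 31010 CPM in fat Ad IIa, so that in fat Ad IIa it stood above the endothelial list, and to 30512 and 39360 CPM in Ad I. By contrast 71 of 84 thymic and 249 of 258 fat Ad I nuclei were in the adipocyte-marker class. The label Ad IIc was split by library: 29 of 34 thymic nuclei were in the endothelial-marker class and 657 of 658 fat nuclei in the adipocyte-marker class. Thymic Ad IIc summed to 20659 CPM of the adipocyte and 16033 CPM of the endothelial list. The labels are used below as names of the authors' groups, not as cell types.

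The 10 genes together gave 359 UMIs in labelled thymic nuclei, or 671 CPM (603 to 744), and 1213 UMIs in labelled fat nuclei, or 562 CPM (531 to 595). By label the thymic sums were 940 CPM in Ad IIc (51 UMIs), 777 in Ad IIb (21), 673 in Ad IIa (270), 362 in Ad Ia (10) and 285 in Ad Ib (7). In fat they were 959 CPM in Ad IIb (135 UMIs), 694 in Ad IIa (858), 457 in Ad Ib (55), 272 in Ad Ia (39) and 244 in Ad IIc (126). In the thymus the 3 Ad II labels were above both Ad I labels, but the intervals of all neighbours in that order overlapped. In fat Ad IIb (804 to 1135) stood above Ad IIa (648 to 742), which stood above Ad Ib (345 to 595). Ad Ib, Ad Ia (193 to 371) and Ad IIc (203 to 291) overlapped with their neighbours in the fat order. At least 1 UMI of a member was found in 54.5% of thymic and 64.6% of fat Ad IIa nuclei. In Ad I the shares were 14.3% and 25.6%, at median depths of 500.5 and 744.5 UMIs per nucleus against 1696 and 1916 in Ad IIa. At least 3 of the 10 genes were detected together in 10 of 231 thymic Ad IIa nuclei (4.33%) and in 58 of 590 fat ones (9.83%).

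**Figure D1:**
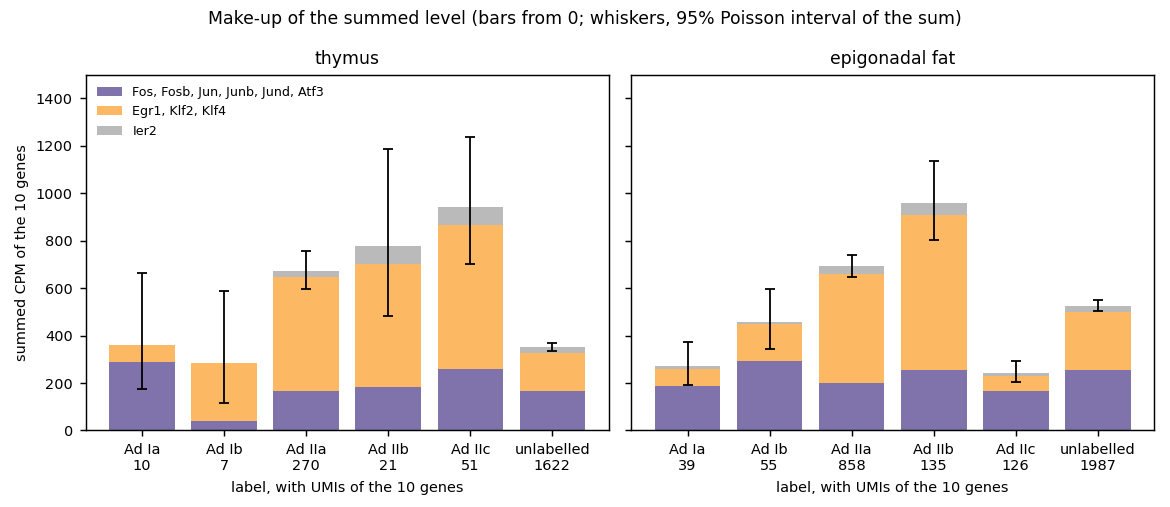
Summed level of the AP-1 and ATF members, Ier2, and the EGR and KLF members (CPM of nuclear-encoded UMIs) in each label and in the unlabelled barcodes of the thymic and the fat library. The zinc finger members reach 481 CPM in thymic and 457 CPM in fat Ad IIa, against 153 and 110 CPM in Ad I, while the AP-1 and ATF members are at 164 to 235 CPM in those 4 groups.

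The members were split into the AP-1 and ATF genes, the zinc finger genes and Ier2. That split was chosen after seeing the data. The AP-1 and ATF genes summed to 235 CPM in fat Ad I and 202 CPM in fat Ad IIa, and to 172 CPM (9 UMIs) and 164 CPM in the thymus. Fos, the founding AP-1 gene, had few UMIs in either library. In labelled thymic nuclei it had 4, of which 3 in Ad IIa and 1 in Ad Ia, or 7.48 CPM (2.04 to 19.1). In labelled fat nuclei it had 23, or 10.7 CPM (6.76 to 16.0), with 27.9 CPM in Ad Ia on 4 UMIs and 12.1 CPM in Ad IIa on 15. Its UMIs lay in 3 of 231 thymic (1.30%) and 12 of 590 fat (2.03%) Ad IIa nuclei. Fosb, its paralogue, had 0 UMIs in the 365 labelled thymic nuclei, which allows up to 5.61 CPM, and 10 UMIs (4.6 CPM) in labelled fat nuclei. Atf3, a stress-induced repressor of the same family, had 1 UMI in labelled thymic and 9 in labelled fat nuclei (1.9 and 4.2 CPM). Fos, Fosb and Atf3 together thus rested on 5 UMIs in labelled thymic nuclei.

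The Jun genes carried most of the AP-1 signal. Jun, the partner of Fos in the classical AP-1 dimer, was at 145 CPM in thymic Ad Ia (4 UMIs), 40.7 in Ad Ib (1), 74.7 in Ad IIa (30), 37.0 in Ad IIb (1) and 55.3 in Ad IIc (3). In fat Jun was at 62.7, 91.5, 67.1, 92.4 and 32.9 CPM in the same order, on 9, 11, 83, 13 and 17 UMIs. The log2 ratio of Ad IIa over Ad I was −0.20 (−0.89 to 0.61) in fat and −0.47 (−1.74 to 1.37) in the thymus, the latter on 5 Ad I UMIs. Jund, the Jun gene that many cells keep on at rest, was at 108.5 CPM in thymic Ad Ia (3 UMIs), 0 in Ad Ib, 52.3 in Ad IIa (21), 74.0 in Ad IIb (2) and 184.3 in Ad IIc (10). In fat Jund was at 69.6, 108.1, 92.1, 127.9 and 100.7 CPM, on 10, 13, 114, 18 and 52 UMIs. Junb, a weaker activator than Jun, was at 27.4 CPM in thymic Ad IIa (11 UMIs) and 0 in thymic Ad I, which allows up to 57.4 CPM there, and at 25.1 and 26.5 CPM in fat Ad IIa and Ad I. In fat, Jun, Junb and Jund were each within a log2 distance of 0.20 between Ad IIa and Ad I.

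**Figure D2:**
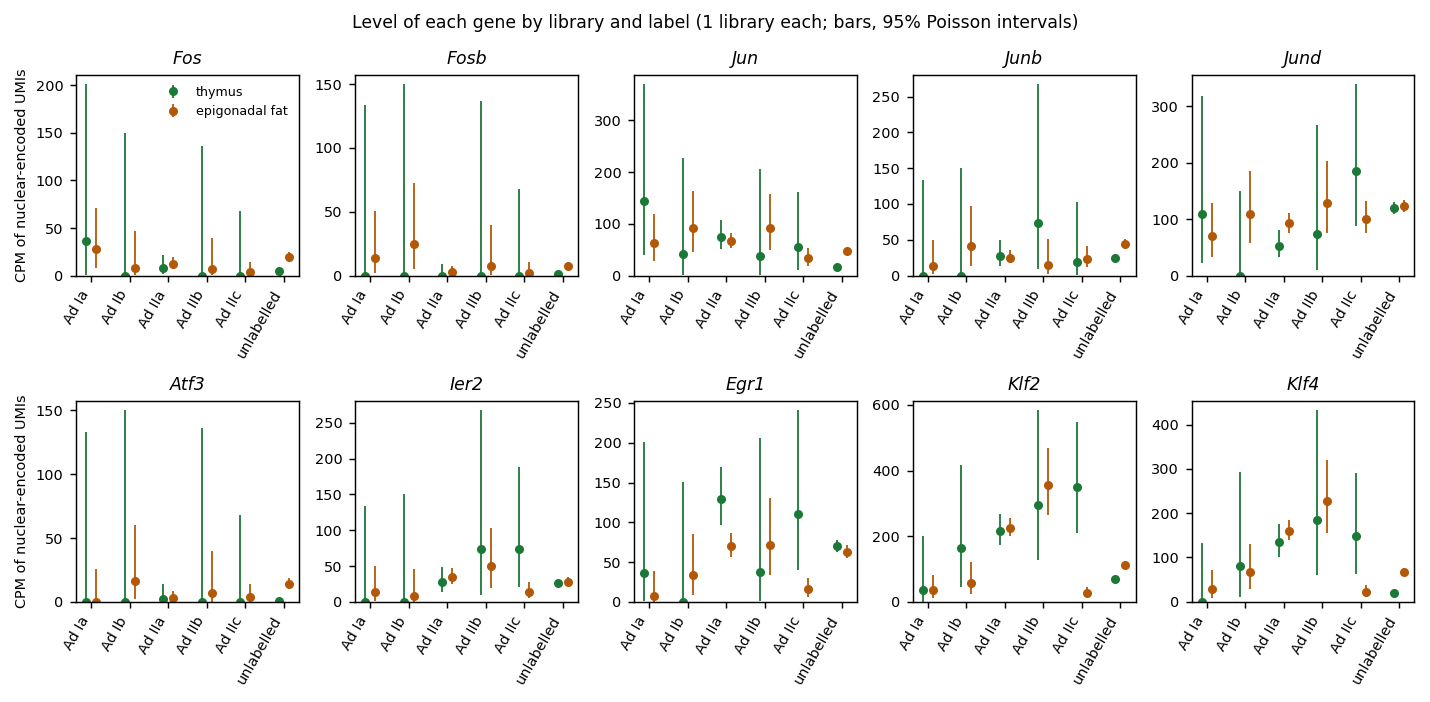
Level of each of the 10 genes (CPM of nuclear-encoded UMIs, 1 panel per gene, each with its own vertical scale) in every label and in the unlabelled barcodes of the thymic and the fat library; bars on the points are 95% counting intervals. Klf2, Klf4 and Egr1 are high in Ad IIa of both libraries, and in fat Ad IIc Klf2 and Klf4 are at 27.1 and 21.3 CPM.

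The zinc finger genes made up 71.5% of the members' UMIs in thymic Ad IIa and 65.9% in fat Ad IIa. Klf2, a factor of quiescent endothelium and T cells, was at 36.2 CPM in thymic Ad Ia (1 UMI), 162.7 in Ad Ib (4), 216.7 in Ad IIa (87), 296.1 in Ad IIb (8) and 350.1 in Ad IIc (19). In fat it was at 34.8 CPM in Ad Ia (5 UMIs), 58.2 in Ad Ib (7), 226.3 in Ad IIa (280), 355.3 in Ad IIb (50) and 27.1 in Ad IIc (14). Klf2 was therefore high in Ad IIa and Ad IIb of both libraries, and in Ad IIc it was high in the thymus and low in fat. Klf4, its relative and a factor of epithelial, endothelial and pluripotent cells, was at 0, 81.4, 134.5, 185.0 and 147.4 CPM in thymic Ad Ia to Ad IIc, on 0, 2, 54, 5 and 8 UMIs. In fat Klf4 was at 27.9, 66.5, 160.0, 227.4 and 21.3 CPM, on 4, 8, 198, 32 and 11 UMIs. The order of labels was that of Klf2 in fat, and the thymic order rested on few UMIs outside Ad IIa.

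Egr1, which is induced through serum response factor and its partner Elk proteins, was at 36.2 CPM in thymic Ad Ia (1 UMI), 0 in Ad Ib, 129.5 in Ad IIa (52), 37.0 in Ad IIb (1) and 110.6 in Ad IIc (6). In fat Egr1 was at 7.0, 33.3, 70.3, 71.1 and 15.5 CPM, on 1, 4, 87, 10 and 8 UMIs. Ier2 was at 27.4 CPM in thymic Ad IIa (11 UMIs) with 0 UMIs in thymic Ad I, and at 34.8 CPM in fat Ad IIa (43 UMIs) and 11.4 CPM in fat Ad I (3). Both genes were lower in Ad I than in Ad IIa in the fat library, on few Ad I UMIs. The interval of that ratio for Ier2, given below, includes 0.

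Shares of nuclei were read as found and after thinning to the same number of total UMIs, because Ad I nuclei held fewer. Klf2 was found in 67 of 231 thymic Ad IIa nuclei (29.0%) and 184 of 590 fat ones (31.2%), and in 4.76% and 3.88% of Ad I nuclei. Of the unlabelled barcodes, at median depths of 308 UMIs in the thymus and 794 in fat, 1.25% and 9.03% held a Klf2 UMI. After thinning each nucleus to 500 UMIs the Klf2 shares were 10.5% and 8.98% in Ad IIa, 0 of 42 (which allows up to 7.14%) and 1.16% in Ad I, and 2.06% and 4.00% in unlabelled barcodes. Thinning left out 42 of the 84 thymic Ad I nuclei, so a share there is hard to measure. The thinned UMIs include mitochondrial ones, a median of 69.3% in unlabelled thymic barcodes against 13.3% in thymic Ad IIa, so those shares differ in nuclear-encoded depth. Klf4 went from 16.0% to 5.24% of thymic and from 24.7% to 7.46% of fat Ad IIa nuclei, and Egr1 from 12.6% to 4.80% and from 10.0% to 3.39%. Klf2 and Klf4 were found together in 20 of 231 thymic (8.66%) and 59 of 590 fat (10.0%) Ad IIa nuclei, and in 14 of 58 fat Ad IIb nuclei (24.1%).

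The first comparison set thymus against fat within a label. Within Ad IIa the 10 genes summed to nearly the same level, with a log2 ratio of thymus over fat of −0.04 (−0.25 to 0.15). Klf2 was at −0.06 (−0.43 to 0.29) and Klf4 at −0.24 (−0.71 to 0.19). Egr1 was higher in the thymus, at 0.89 (0.36 to 1.39), and Jund lower, at −0.79 (−1.56 to −0.14). A ratio was counted as past 2-fold when its log2 value, with 0.5 UMI added to each sum, reached 1 or −1 and at least 10 UMIs were seen over both sides. Of the 8 members with enough UMIs, 0 were past 2-fold, against 21.7% of all genes. Within Ad I, which here is 17 thymic against 94 fat UMIs, the sum was at −0.10 (−0.97 to 0.62). It went to −1.34 after thinning to 500 UMIs, on 2 against 43, and to 0.38 in nuclei with at least 1000 UMIs, so its direction is not set. Of the 4 members tested there only Klf2 was past 2-fold, at 1.15 (−0.78 to 2.68) on 5 and 12 UMIs, and the background was 32.2%. With TMM or median-of-ratios scaling it was 0 of 4. The share of higher genes among those past 2-fold was 47.1% by totals in this comparison and 20.5% with TMM.

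**Figure D3:**
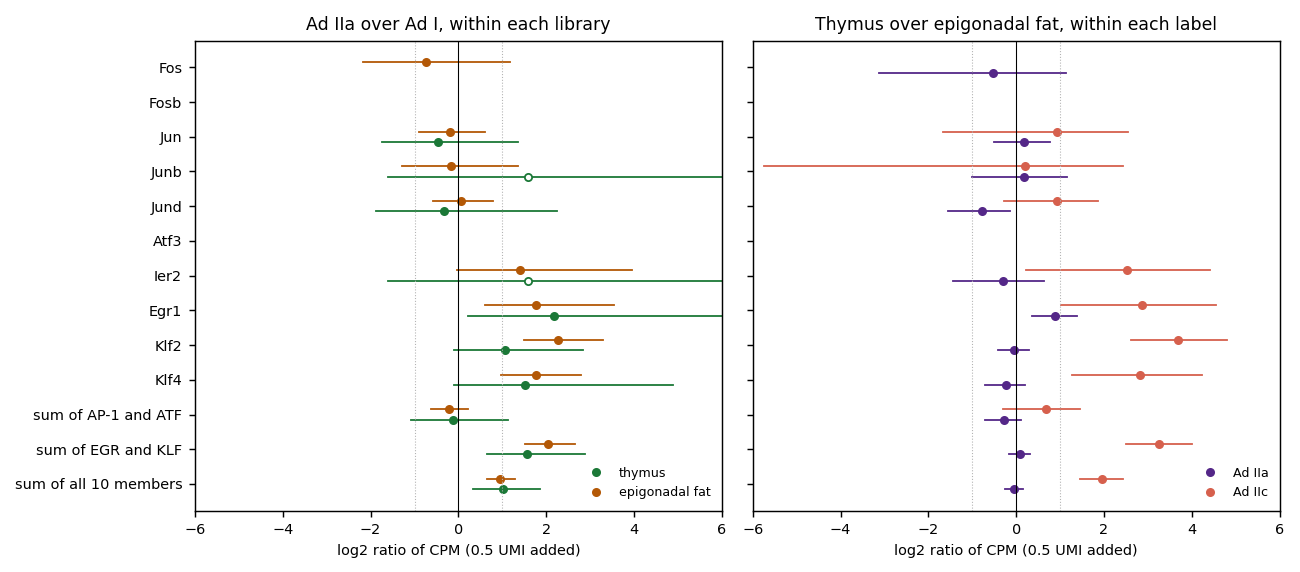
Log2 ratios of each member with at least 10 UMIs over both sides, and of summed members. They are shown for Ad IIa over Ad I in each library and for thymus over fat within Ad IIa and within Ad IIc. The Ad IIc comparison and the family sums were chosen after seeing the data. Lines are 95% counting intervals cut off at 6 and −6, dotted lines are at 1 and −1, and open points have 0 UMIs on 1 side. Klf2, Klf4 and Egr1 lie to the right of 1 in Ad IIa over Ad I in both libraries. All of them in the thymus, and Egr1 in fat, had fewer than 10 Ad I UMIs and reached the minimum through Ad IIa. The thymic intervals of Klf2 and Klf4 include 0.

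The second comparison set Ad IIa against Ad I within a library. In fat the 10 genes summed to 694 CPM against 356 CPM, a log2 ratio of 0.95 (0.65 to 1.28), or 0.58 without Klf2. By the split into families, which was chosen after seeing the data, the zinc finger genes were at 2.03 (1.52 to 2.65). The AP-1 and ATF genes were at −0.23 (−0.62 to 0.21). Klf2 was at 2.26 (1.49 to 3.28), Klf4 at 1.76 (0.98 to 2.79), Egr1 at 1.76 (0.61 to 3.55) and Ier2 at 1.41 (−0.03 to 3.95). Egr1 and Ier2 reached 10 UMIs only through Ad IIa, with 87 against 5 and 43 against 3 UMIs, so the members past 2-fold are not counted here. In the thymus the sum was at 1.01 (0.34 to 1.85) on 270 against 17 UMIs. Over the alternatives it ran from 0.47 in nuclei with at least 1000 UMIs, where Ad I is 9 nuclei with 9 member UMIs, to 2.32 after thinning, which leaves 69 against 2. In the thymus the zinc finger genes were at 1.57 (0.64 to 2.88) and the AP-1 and ATF genes at −0.13 (−1.08 to 1.12), the latter on 9 Ad I UMIs. Over the alternatives the thymic zinc finger value ran from 0.987 to 2.63. The AP-1 and ATF value ranged from −0.72 in nuclei with at least 1000 UMIs to 0.89 after thinning, which leaves 1 such UMI in Ad I, and was 0.35 with TMM scaling, so its direction in the thymus is not set. Egr1 was at 2.19 (0.22 to 8.09), Klf4 at 1.50 (−0.11 to 4.89) and Klf2 at 1.05 (−0.10 to 2.84). Junb and Ier2 were at 1.58 each, on 11 UMIs against 0. All 7 members with 10 UMIs had fewer than 10 in Ad I and passed through Ad IIa, so no count of them is given. The share of higher genes among those past 2-fold was 58.3% by totals and 76.6% with TMM in the thymus, and 53.2% and 64.1% in fat, where median-of-ratios gave 42.6%.

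Endothelial markers moved with the zinc finger genes. Of the endothelial markers tested, 19 of 19 in the thymus and 19 of 20 in fat were more than 2-fold higher in Ad IIa than in Ad I, with median log2 ratios of 3.03 and 2.53, against 28.2% and 19.8% of all genes. Of the higher markers 14 in the thymus and 2 in fat had fewer than 10 UMIs in Ad I. Among fat Ad IIa nuclei Klf2 was at 237 CPM in the 389 endothelial-marker nuclei and at 179 CPM in the 147 adipocyte-marker nuclei, and Klf4 at 167 and 144 CPM. The adipocyte-marker nuclei of fat Ad IIa thus summed to 586 CPM over the 10 genes, against 331 CPM in the adipocyte-marker nuclei of fat Ad I. Nuclei with too few or tied markers, 54 in fat Ad IIa, held 261 CPM of Klf2. The RNAs Malat1, Neat1 and Meg3, which stay in the nucleus, summed to 59455 CPM in thymic Ad I and 17823 CPM in thymic Ad IIa, and to 42411 and 10402 CPM in fat. The part of cell mixture and of this RNA in the ratios was not tested.

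Ad IIc was the label in which the libraries were farthest apart, a comparison added after seeing the data. The 10 genes were at a log2 ratio of 1.95 (1.45 to 2.43) of thymus over fat, with Klf2 at 3.68 (2.62 to 4.80), Egr1 at 2.86, Klf4 at 2.81 and Ier2 at 2.51. The sum was 1.43 with TMM and 1.001 with median-of-ratios scaling, and 2.54 after thinning. The share of higher genes among those past 2-fold was 50.6% by totals, 37.8% with TMM and 27.7% with median-of-ratios. Of the 7 members tested these 4 were higher and 0 lower, against 64.7% of all genes past 2-fold and 32.7% higher. Of the 4, Egr1 and Ier2 had fewer than 10 UMIs in fat and reached the minimum through the thymic nuclei, so the count is a description only. All 18 endothelial markers tested were higher in the thymic nuclei of this label, with a median of 4.36, and 4 of them had fewer than 10 UMIs in fat. Malat1, Neat1 and Meg3 summed to 14503 CPM in thymic and 1829 CPM in fat Ad IIc. The part of these markers and RNAs in the difference was not tested. Against Ad I the sum was at 1.50 (0.71 to 2.42) in the thymus, on 51 against 17 UMIs. Klf2 had 19 against 5 UMIs, Jund 10 against 3 and Klf4 8 against 2, and these 3 reached the minimum of 10 UMIs through Ad IIc, so they give no count. Jun had 3 against 5. That sum was 0.81 in nuclei with at least 1000 UMIs, where Ad I is 9 nuclei with 9 member UMIs, and 3.34 after thinning, where Ad I holds 2 member UMIs. In fat the sum was at −0.55 (−0.94 to −0.14), with Jun and Klf4 lower (2 of 7, background 37.5%), but at −0.12 with TMM and 0.13 with median-of-ratios scaling, where 0 of 7 were past 2-fold. The small label Ad IIb was higher than Ad I in both libraries, at 1.25 (0.26 to 2.27) in the thymus and 1.43 (1.04 to 1.82) in fat.

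The third comparison set labelled nuclei against the barcodes that carry no label. In the thymus the 10 genes were at 671 CPM in labelled nuclei and 352 CPM (335 to 370) in unlabelled barcodes, a log2 ratio of 0.93 (0.76 to 1.10). In labelled against unlabelled barcodes Klf4 was at 129.0 and 19.99 CPM, Jun at 72.9 and 17.4, Egr1 at 112.2 and 70.0, and Jund at 67.3 and 119.3. As log2 ratios Klf4 was at 2.69 (2.22 to 3.16), Jun at 2.08 (1.48 to 2.64) and Klf2 at 1.70 (1.38 to 2.01), 3 of 8 tested, against 16.6% of all genes higher. Egr1 was at 0.69 (0.26 to 1.08), and Jund was lower in labelled nuclei, at −0.81 (−1.35 to −0.34). With all UMIs, mitochondrial ones included, as the total, Jund was at 0.02 and the sum at 1.76. In fat the sums were near each other, 562 CPM against 526 CPM, a log2 ratio of 0.10 (−0.01 to 0.20). Atf3 was at −1.71 (−2.98 to −0.75), Fos at −0.86 (−1.62 to −0.19), Junb at −0.84 (−1.33 to −0.39) and Jund at −0.35. Jun went the other way, at 0.41, on 61.6 CPM in labelled and 46.6 CPM in unlabelled barcodes. Only Atf3, 1 of 10 tested, was past 2-fold lower, against 14.9% of all genes. Atf3 had fewer than 10 UMIs in labelled fat nuclei and reached the minimum through the unlabelled barcodes, so that count is a description only. Klf4 was at 0.78 (0.52 to 1.04) and Klf2 at 0.55, while Egr1 went the other way and was lower in labelled fat nuclei. Together the zinc finger genes were at 333 CPM (309 to 358) in labelled and 244 CPM (228 to 260) in unlabelled fat barcodes. Endothelial markers were more than 2-fold higher in labelled nuclei for 20 of 20 genes in the thymus and 18 of 20 in fat, with medians of 3.14 and 1.26, against 16.6% and 5.08% of all genes. Of the adipocyte markers tested only 2 of 19 in the thymus and 1 of 20 in fat were more than 2-fold higher in labelled nuclei.

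**Figure D4:**
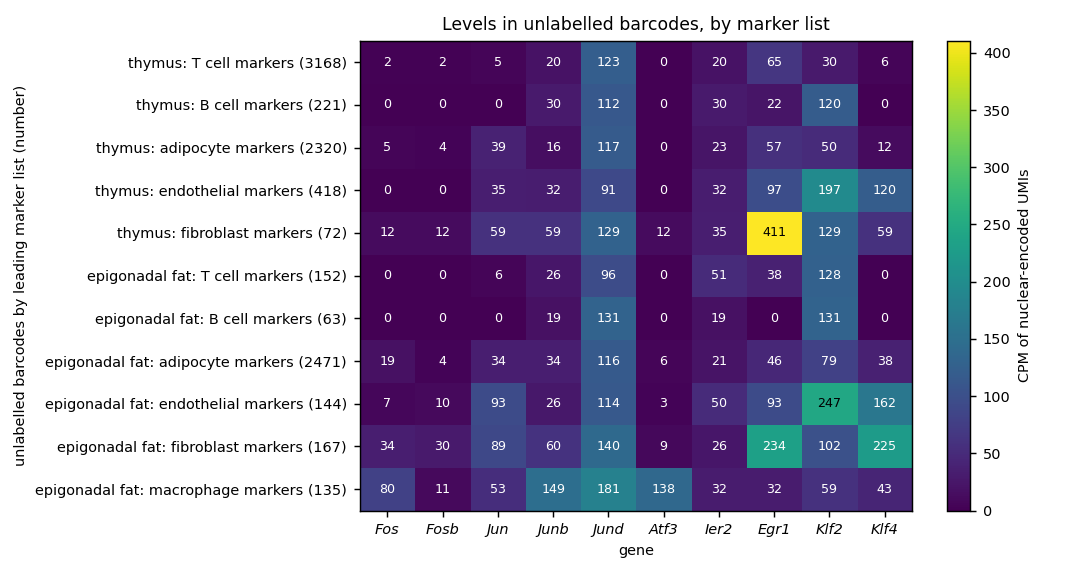
Level of each member (CPM of nuclear-encoded UMIs, printed in each cell) in unlabelled barcodes grouped by the cell-type list whose markers they hold, in the thymic and the fat library. In fat Atf3 and Junb are highest in the macrophage-marker class at 138 and 149 CPM, and Egr1 in the fibroblast-marker class at 234 CPM.

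Among unlabelled barcodes several members differed between the marker classes. In the 135 fat barcodes of the macrophage-marker class Atf3 was at 138 CPM (26 UMIs), Fos at 79.8 (15), Junb at 149 (28) and Jund at 181. These 135 barcodes held 26 of the 54 Atf3 UMIs of all unlabelled fat barcodes. The 167 fibroblast-marker barcodes of fat had Egr1 at 234 CPM (55 UMIs) and Klf4 at 225 CPM (53). The 72 fibroblast-marker barcodes of the thymus also had Egr1 high, at 411 CPM (35 UMIs). The 144 endothelial-marker barcodes of fat had Klf2 at 247 CPM and Klf4 at 162 CPM, and the 418 of the thymus 197 and 120 CPM. These levels are near those of Ad IIa in each library. In the 3168 T cell-marker barcodes of the thymus Klf2 was at 30.3 CPM, Klf4 at 5.8 and Jun at 5.2, at a median depth of 561.5 UMIs. The thymic Ad IIa levels of 216.7 CPM for Klf2 and 134.5 CPM for Klf4 are to be read against these. Jund did not show that gap, at 122.9 CPM in the same T cell-marker barcodes.

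The unlabelled barcodes of the 2 libraries differed too, with the sum at a log2 ratio of −0.58 (−0.67 to −0.48), thymus over fat. Atf3 was at −3.88, Fosb at −2.42, Fos at −2.15, Klf4 at −1.77 and Jun at −1.42, so 5 of 10 members were more than 2-fold lower, against 22.4% of all genes. Atf3 and Fosb had fewer than 10 thymic UMIs and reached the minimum through the fat barcodes, so the count is a description only. The ratio of the sum was −1.45 with all UMIs as the total and −0.32 with equal weight per barcode. Unlabelled fat barcodes with under 5% mitochondrial RNA held 673 CPM of the 10 genes, those with 5 to under 20% 456 CPM and those with 20% or more 433 CPM. In the thymus the last 2 classes held 333 and 354 CPM, and only 21 barcodes were under 5%. Of the endothelial markers 11 of 20 were more than 2-fold lower in the unlabelled thymic barcodes, with a median log2 ratio of −1.06. Depth, mitochondrial share and these markers differ between the libraries together with the members' levels, and their part was not tested.

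Genes of the wider pathway were taken from 5 lists. Of all genes tested in Ad IIa against Ad I, 83.2% in the thymus and 52.7% in fat had fewer than 10 UMIs in Ad I and passed the minimum through Ad IIa. The counts of higher genes in that comparison are given as a description only. Among 46 other immediate early genes, 13 of 21 tested were more than 2-fold higher and 5 lower in Ad IIa than in Ad I in the thymus, with a median log2 ratio of 1.33 against 0.08 for all genes. Of all genes 28.2% were higher and 20.2% lower. Of the 13 higher genes of this list, 12 had fewer than 10 UMIs in Ad I and passed through Ad IIa. With a side at 0 set to 3 UMIs, a rule chosen after seeing the data, the count was 9 of 21 higher, against 16.0% of all genes, with a median of 0.47. In fat 14 of 34 were higher and 4 lower, against 19.8% and 17.5% of all genes, with a median of 0.87 against 0.07. Of these 14 higher genes 7 had fewer than 10 Ad I UMIs. By the stricter rule 12 of 34 were higher in fat, against 17.5% of all genes. Sgk1, a kinase induced by serum and glucocorticoid, was higher in both, at 2.40 in the thymus (101 against 2 UMIs) and 2.63 in fat (305 against 10). Plk2, a kinase induced by serum, was at 2.29 in fat (57 against 2) and had 26 thymic UMIs against 0. Dusp1, a phosphatase of stress kinases, had 46 thymic Ad IIa UMIs against 0 in Ad I. In the other direction the thymus had Zfp36, which destabilises cytokine mRNA, at −1.59 (11 against 4 UMIs), Tsc22d3, a glucocorticoid target, at −1.52 and the kinase gene Pim1 at −1.45. In fat Egr3 was at −1.49.

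Of the other Krüppel-like factors tested, 5 of 7 in the thymus and 6 of 10 in fat were more than 2-fold higher in Ad IIa, and all 5 in the thymus and 2 in fat had fewer than 10 Ad I UMIs. In the thymus 0 and in fat 2 were lower, with medians of 1.25 and 1.28 against 0.08 and 0.07 for all genes. The shares of all genes higher are the 28.2% and 19.8% given above. Klf7 was at 2.95 in the thymus (267 against 4 UMIs) and 3.11 in fat (629 against 15), and Klf6 at 2.87 (84 against 1) and 1.68 (233 against 15). Klf13 was at 2.89 in the thymus (142 against 2), and Klf15, an adipocyte and muscle factor, at −1.46 in fat. Among upstream kinases and serum response factors 4 of 24 in the thymus and 4 of 28 in fat were higher and 3 and 3 lower, shares below those of all genes in either direction, with medians of 0.14 and 0.52. Of the higher ones 4 in the thymus and 1 in fat had fewer than 10 Ad I UMIs. Elk3, a partner of serum response factor, was at 2.42 in the thymus (225 against 5 UMIs) and 1.83 in fat (542 against 32), and Mef2c, a factor that binds MEF2 boxes, at 2.49 in the thymus (323 against 7).

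Of the other AP-1 and ATF genes 1 of 10 was higher and 2 lower in the thymus, and 1 of 14 higher and 3 lower in fat, with medians of −0.20 and −0.01. The shares lower are near the 20.2% and 17.5% of all genes, and the shares higher below the 28.2% and 19.8%. In each library the higher gene had fewer than 10 Ad I UMIs. Jdp2, a partner of Jun, was the thymic gene past 2-fold at 1.25, Mafg was at −1.74, and Atf5 was at 1.15 in fat. Heat shock and chaperone genes had 4 of 18 higher and 1 lower in the thymus and 4 of 19 higher and 0 lower in fat, shares of higher genes near the background of 28.2% and 19.8%. Their medians were 0.10 and 0.64, the thymic one −0.10 with a side at 0 set to 3 UMIs. Of the higher heat shock genes 3 in the thymus and 2 in fat had fewer than 10 Ad I UMIs. Hspb1, a small heat shock protein gene, was at 1.85 in the thymus (152 against 5 UMIs) and 2.60 in fat (241 against 8). Hspa5, a chaperone of the endoplasmic reticulum, was at −2.25 in the thymus (23 against 14). These lists were drawn up with earlier results of these libraries known, and their counts describe these libraries only.

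Between thymus and fat within Ad IIa 5.44% of all genes were more than 2-fold higher in the thymus and 16.2% lower. Of the other immediate early genes 1 of 33 was higher in the thymus and 6 lower, with a median of 0.03 against −0.02 for all genes. Per1, a clock gene, was at 1.52 (26 against 28 UMIs), Cebpb, an adipocyte and inflammatory factor, at −2.08 (5 against 71) and Ier5 at −1.75 (4 against 46). Of the heat shock genes 2 of 20 were higher and 4 lower. Hspa1a at 3.21 (10 against 3) and Hspa1b at 2.46 (20 against 11) were the 2 higher ones, and these near-identical paralogues may share reads. Cryab had 0 thymic UMIs against 20 in fat. Of the other Krüppel-like factors 1 of 10 was higher, Klf12 at 2.20 (27 against 18), and 3 lower, among them Klf15 at −1.65. Maf, an AP-1 relative of macrophages and T cells, was at −2.80 (2 against 53). Cebpb, Ier5, Cryab and Maf had fewer than 10 thymic UMIs and passed the minimum through fat, and Hspa1a passed through the thymus. The counts of lower and higher genes within Ad IIa are therefore a description only. Within Ad I, on far fewer UMIs, 5 of 18 other immediate early genes and 5 of 15 heat shock genes were more than 2-fold higher in the thymus, against 15.2% of all genes, and 1 and 0 were lower, against 17.0%. That share of higher genes depends on the scaling, since TMM takes the number of all genes higher in this comparison from 810 to 369. Of the higher genes of these lists in Ad I, 3 immediate early and 2 heat shock genes had fewer than 10 UMIs in fat and passed through the thymus.

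The genes whose levels followed the members most closely were ranked by Pearson r of log2(CPM + 10) over the 10 library-by-label groups, which share 2 libraries and differ in depth. For the summed members they were Tnfsf10 (r = 0.936), Usp25 (0.936), Ggta1 (0.935), Epas1 (0.933) and Pcdh17 (0.932). For Klf2 they were Egfl7 (0.966), Emcn (0.964), Tcf4 (0.963), Ephb4 (0.963) and S1pr1 (0.962). Egfl7, Emcn and Ephb4 are known as endothelial genes. For Jund they were Ankrd13c (0.940), Sdcbp (0.936), Ptpn11 (0.926), Rrbp1 (0.919) and H2-K1 (0.917), and for Jun Ireb2 (0.898), Scfd1 (0.888), Mapkap1 (0.886), Snx13 (0.884) and Wdr7 (0.871). For Fos, which had 27 UMIs over these groups, Tnpo3 was first at 0.919.

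In the 6-month female thymus open chromatin was read as fragments over each gene with 2 kb on either side. On GRCm38 Atf3 lies on chromosome 1, Jun and Klf4 on 4, Fosb on 7, Junb, Jund, Ier2 and Klf2 on 8, Fos on 12 and Egr1 on 18. The complete rows of the deposited table gave 146 nuclei with the label thyAD I (1646902 fragments), 140 with thyAD II (2189613) and 31 with Immune (561387). All 10 genes had fragments in each of them, and together they held 911 CPM of fragments, scaled by all fragments of a label, in thyAD I (1501 fragments), 882 in thyAD II (1931) and 903 in Immune (507). Fos was at 68.6, 85.9 and 62.3 CPM in that order, Jun at 154, 145 and 137, Jund at 128, 119 and 180, and Klf2 at 50.4, 42.5 and 35.6. Per kb of window, in thyAD I, Jun was at 21.5, Jund at 18.5 and Junb at 16.2 CPM, and Klf4 and Atf3 at 5.92 and 5.45. Jun had at least 1 fragment in 79.5%, 81.4% and 83.9% of nuclei, and Klf2 in 41.1%, 48.6% and 45.2%. Median depths were 10105.5, 15057 and 16036 fragments per nucleus in the same order. These shares were not thinned, so they differ in depth between the labels. The fragments may have entered the making of the labels, so differences between them are a description.

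Taken over whole labels, the chromatin of the members differed little between thyAD I and thyAD II. Inside thyAD I the deposited clusters 1 (85 nuclei) and 3 (61), a split chosen after seeing the data, were farther apart for some members. Fosb was at 65.8 (51.7 to 82.6) CPM in cluster 1 and 134 (104 to 169) in cluster 3, and Atf3 at 76.5 and 128. Jund, Ier2 and Klf2 went the other way. The sum was at a log2 ratio of thyAD II over thyAD I of −0.05 (−0.15 to 0.05), and 0 of 10 members were past 2-fold, against 7.45% of all genes. With so few members that count cannot be told from the background. The members' median was −0.09 and that of all genes 0.02. Fos had the highest value, 0.32 (−0.02 to 0.67), and Klf4 the lowest, −0.40 (−0.83 to 0.04). Within 1 kb on either side of the RefSeq start the 8 members with a start were at −0.18 (−0.33 to −0.03), 0 of 8 past 2-fold against 6.44% of all starts, and Klf4 was at −0.65 (−1.15 to −0.16). Over the gene body without flanks, however, Klf4 was at 0.21. The thymic RNA above comes from other animals, of the other sex and another age, and from labels of another name, so the assays were not compared.

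The 31 nuclei labelled Immune in the 6-month thymus serve as a further group, added after seeing the data. Over genes with 2 kb on either side their 10 members were at 903 CPM of fragments, and those of thyAD I at 911, which is a log2 ratio of −0.01 (−0.16 to 0.13). Jund was at 0.50 (0.14 to 0.85) and Atf3 at −0.69 (−1.30 to −0.15), and 0 of 10 members were past 2-fold, against 19.0% of all genes. Within 1 kb of the start Junb was at 1.13 (0.48 to 1.76), on 38 against 51 fragments, and Atf3 at −0.82 (−1.57 to −0.18). Junb was the 1 of 8 members past 2-fold higher there, against 6.05% of all starts.

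**Figure D5:**
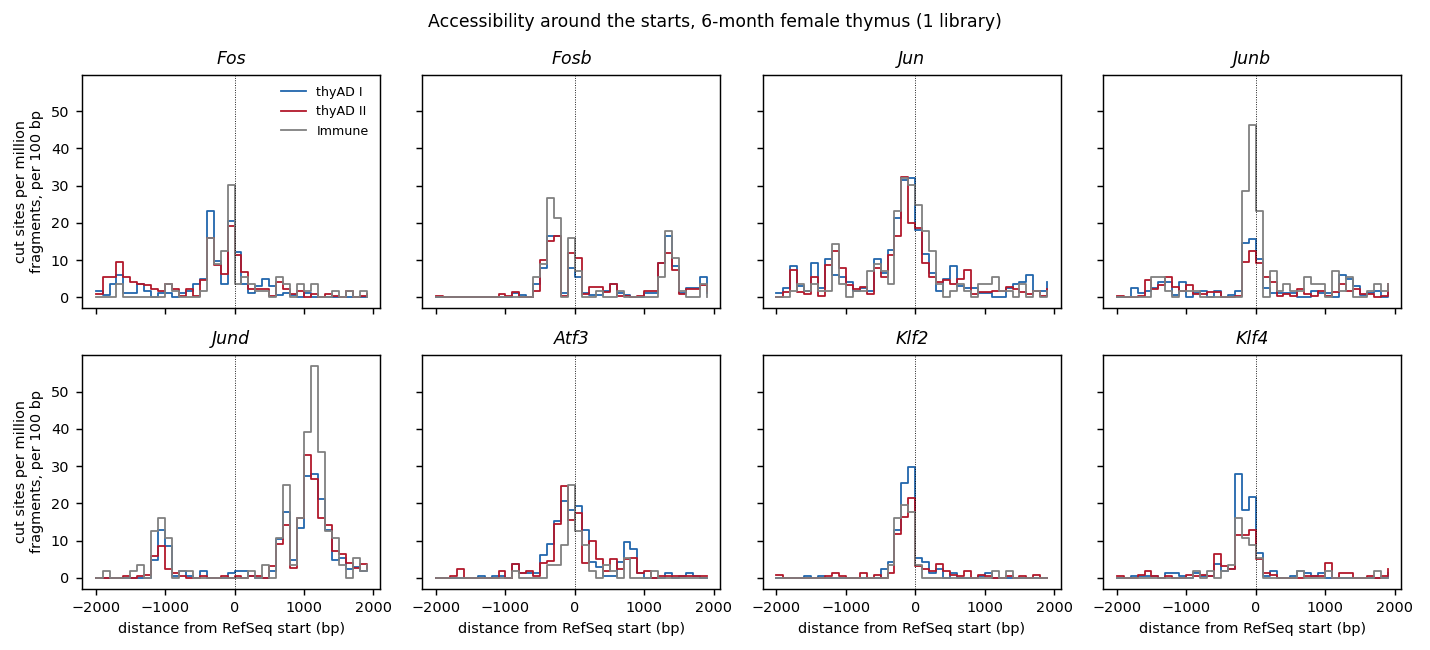
Cut sites, as CPM of a label's fragments, in bins of 100 bp, by distance from the RefSeq start (bp, upstream negative), for the 8 members with a start entry in thyAD I, thyAD II and Immune nuclei. Jun, Klf2 and Atf3 peak within 200 bp before the start, and Jund peaks more than 1000 bp after it.

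The starts ranked high among 27025 mouse gene starts by fragments in thyAD I: Jun at percentile 99.7, Atf3 at 98.6, Fos at 95.5, Klf4 at 94.4, Klf2 at 93.7, Jund at 92.1, Fosb at 88.9 and Junb at 86.1. The median start held 1.82 CPM. The bin with the most cut sites in thyAD I lay 100 to 0 bp before the start for Jun and Klf2 and 200 to 100 bp before it for Atf3. These bins fall inside the Jun, Klf2 and Atf3 sequences printed above. For Klf4 the peak bin lay 300 to 200 bp before the start in thyAD I and 100 to 0 bp before it in thyAD II, and for Fos 400 to 300 bp and 100 to 0 bp. Jund was different, with its peak bin 1100 to 1200 bp after the start in thyAD I and 1000 to 1100 bp after it in thyAD II, outside the start window used above. The gene windows of Jun, Jund, Fosb and Klf4 each take in 1 neighbouring gene (Junos, Iqcn, Gm26802 and Gm12506), and fragments there cannot be assigned to 1 of them.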

How the data were processed

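Raw UMI counts per gene and barcode were deposited by the authors, and the file headers name cellranger 7.2.0. For these matrices the labels and headers state neither the build nor the annotation, nor whether intronic reads were counted. The authors' deposited per-nucleus tables give a label, UMI and fragment counts, the percent of mitochondrial UMIs and, for the multiome, an enrichment ratio at gene starts. Multiome fragments came from Cell Ranger ARC 2.0.2, and Seurat 5.1.0 and mm10 are named, per the submitters' processing notes. The copy of the multiome table used here held 317 complete rows, and later nuclei were not analysed here. Columns of samples outside the series numbered 0. No further doublets were removed beyond the authors' classes.

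UMIs were summed per library and label, over nuclear-encoded genes, and scaled to CPM. Log2 ratios used 0.5 UMI per sum. Intervals at 95% were exact Poisson for sums, the binomial split for ratios and Clopper-Pearson for shares. They cover counting error only, and the limit given beside a count of 0 is 3 counts. A ratio counted as past 2-fold at a log2 value of 1 or −1 with at least 10 UMIs or fragments over both sides. Shares were also read after thinning each barcode to 500 UMIs with a fixed seed. The ratio step was tested on simulated data. Fragments were assigned to GRCm38 windows of whole RefSeq genes, introns included. Alternatives were TMM scaling (edgeR 4.0.16 on the counts, with no test), median-of-ratios scaling, all UMIs as the total, equal weight per nucleus, barcodes with at least 1000 UMIs, thinning, a pseudocount of 5 UMIs and leaving out the member with the most UMIs. With 1 library per group no model of replicates could be fitted.

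The members and lists were chosen with earlier results of these data known. Genes named were all members, the 3 highest and 3 lowest log2 ratios of each list (of which the text gives a part), and the 5 genes most like the summed members, Fos, Jun, Jund and Klf2 among genes with at least 200 UMIs over groups with at least 20000 UMIs.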

Additional observations from a re-analysis of the deposited data

Results flagged for a closer look

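The label Ad IIc pointed in opposite directions in the 2 libraries. Against Ad I of the same library the 10 genes together were at a log2 ratio of 1.50 (0.71 to 2.42) in the thymus and −0.55 (−0.94 to −0.14) in epigonadal fat. The zinc finger genes Egr1, Klf2 and Klf4 were at 1.92 (0.85 to 3.32) and −0.78 (−1.55 to −0.01). With TMM or median-of-ratios scaling the fat value of the 10 genes was −0.12 or 0.13. The difference between the libraries was not tested, since each is 1 library. The 34 thymic nuclei were mostly of the endothelial-marker class (29) and the 658 fat nuclei of the adipocyte-marker class (657). Erythroid markers summed to 25948 CPM in thymic Ad IIc.

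Thymus against fat also pointed in opposite directions in Ad IIc and in the unlabelled barcodes. The 10 genes were at 1.95 (1.45 to 2.43) in Ad IIc and −0.58 (−0.67 to −0.48) in unlabelled barcodes, and the zinc finger genes at 3.25 (2.51 to 3.99) and −0.62 (−0.76 to −0.48). This difference was not tested either.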

How the results depend on the processing

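No paired analysis was possible because each group is 1 library. Sums and summed families were recomputed for 15 results under 143 alternative values, of which 121 moved by less than the counting interval and 22 by more. For single members 533 of 553 values over 70 results stayed within it. Thinning to 500 UMIs, which leaves 2 member UMIs in thymic Ad I, gave −1.34 for thymus over fat in Ad I, 2.32 for Ad IIa over Ad I in the thymus, 3.34 for Ad IIc over Ad I in the thymus, 2.54 for thymus over fat in Ad IIc and −0.37 for the unlabelled barcodes. Nuclei with at least 1000 UMIs gave 0.38 for thymus over fat in Ad I and 0.47 for Ad IIa over Ad I in the thymus. Without Klf2 the sum of Ad IIa over Ad I in fat was 0.58, and that of labelled over unlabelled barcodes in fat −0.058. Labelled over unlabelled barcodes in the thymus was 0.74 with median-of-ratios scaling, 1.76 with all UMIs as the total, 0.75 with equal weight per nucleus, 1.37 without Jund and 0.74 with Gm42418, AY036118 and Malat1 left out of the total. Ad IIc over Ad I in fat was −0.12 with TMM and 0.13 with median-of-ratios scaling, and thymus over fat in Ad IIc 1.43 and 1.001. Unlabelled barcodes, thymus over fat, were at −1.45 with all UMIs as the total, −0.32 with equal weight, −0.75 in barcodes with at least 1000 UMIs, −0.79 without Jund and −0.47 without those 3 RNAs. Fragments at gene starts gave −0.18 for thyAD II over thyAD I. Among single members past 2-fold, Klf2 in Ad I went to −0.03 after thinning, which leaves 0 thymic UMIs so that the pseudocount sets the value, Junb in thymic Ad IIa over Ad I to −0.15 after thinning, likewise with 0 Ad I UMIs, and Junb and Ier2 there to −1.26 each with a pseudocount of 5 UMIs. The comparisons on Ad IIc and on the unlabelled barcodes between libraries were chosen after seeing the data. So were the total without the 3 RNAs and the split of the members into families. The cause of these shifts was not tested. TMM moved every log2 ratio of Ad IIa over Ad I in the thymus by 0.48, that of thymus over fat in Ad I by −0.40 and that of Ad IIc over Ad I in fat by 0.43. Depth limits thymic Ad I, with 17 member UMIs and 9 of 84 nuclei at 1000 UMIs or more.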
